A study of Arvicanthis niloticus with 28 samples.

Results

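The insulin and insulin-like growth factor (IGF) signaling genes described here were the IGF ligand gene Igf2, the receptor genes Insr and Igf1r, the adaptor genes Irs1 and Irs2, the binding protein genes Igfbp3, Igfbp4, Igfbp5 and Igfbp7, and the transcription factor gene Foxo1. They were chosen by name from the pathway, not by their values, though earlier results of these data were known. All 10 were present among the 18970 genes of the expected count and TPM (abundance per transcript length, scaled to a sum of 1000000) tables. All 10 also passed the filter on low counts, which 13800 genes passed. RNA from the retinal vasculature of 28 Nile rats (Arvicanthis niloticus), a rodent that can become diabetic on an energy-rich diet, was sequenced with 1 library per rat. The question was which transcripts change before retinal capillaries are lost. The neurons had been lysed off the vessels in water, and rats were described by their random blood glucose and by their density of acellular capillaries, the empty tubes that remain after capillary cells have died.

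All rats were labelled as wild type and untreated, and age and diet were not given in the labels. Blood glucose was above 200 mg/dL in 5 rats, at 226 mg/dL in T370M, 278 in T391M, 362 in T392F, 422 in T446M and 443 in T389M, and lay between 52.0 and 147 mg/dL in the other 23. Of the rats above 200 mg/dL, 4 were male and 1 was female. The pre-dropout group held 4 male rats with 17.1 to 17.9 acellular capillaries per square millimeter (T353M, T389M, T391M and T407M), and the normal group held 24 rats, 8 male and 16 female, at 5.90 to 14.5. T389M and T391M belonged both to the rats above 200 mg/dL and to the pre-dropout group, and no rat had a density above 18, so glucose, sex and density were not separated by the design. Each rat counted as 1 replicate.

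Insulin and the IGFs bind receptor tyrosine kinases on the cell surface, which pass the signal through the insulin receptor substrates to the kinase AKT. AKT keeps FOXO transcription factors out of the nucleus, and FOXO1 in endothelial cells is known as a brake on growth and metabolism. The IGF binding proteins are secreted, hold IGFs away from or near their receptor, and some are laid down in the vessel wall.

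The libraries differed in depth and in the number of genes they detected. Expected counts summed to between 153111 and 10029207 per library, and 2 libraries (T410F and T448M) lay under 1000000. A count of 0 allowed, by counting error alone, up to 0.302 to 15.3 CPM (counts scaled to a library of 1000000) depending on the library. The number of genes with a count ran from 7502 to 16139 over the libraries, with no gap that stood out. A cut at 12000, chosen after the data were seen, left 18 libraries with 7502 to 11567 genes and 10 with 12403 to 16139. These 2 sets of libraries are given beside the results below because several of the 10 genes moved with them. The sets were formed from the data, are not groups of the study and cannot be assigned to a named batch from the labels. Endothelial markers were present in all libraries, at a summed 12087 to 54300 TPM for 12 genes, and pericyte markers at 2512 to 15279 TPM for 8 genes. Rod photoreceptor markers summed to 204 to 10519 TPM for 12 genes, so some photoreceptor RNA was present, although Nrl was at 0 in more than 14 rats. Of 8 microglia and macrophage markers, 5 (Aif1, Csf1r, Cx3cr1, P2ry12 and C1qb) were at 0 in more than 14 rats, and the 8 summed to 0.364 to 143 TPM.

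The secreted binding proteins made up most of the transcripts of the 10 genes. Igfbp7, which encodes a matrix-bound binding protein of the vessel wall, was the highest, ranking 55 of 18970 genes by median TPM, and it was above the next gene in 28 of 28 rats. Both insulin receptor substrates were near the detection limit, with a median of 0, and what set their zeros was not tested. The 4 binding proteins together held a median 92.4% of the summed TPM of the 10 genes (76.8% to 99.7% over rats), and Igfbp7 alone held 70.7% (40.8% to 92.0%).

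**Figure D1:**
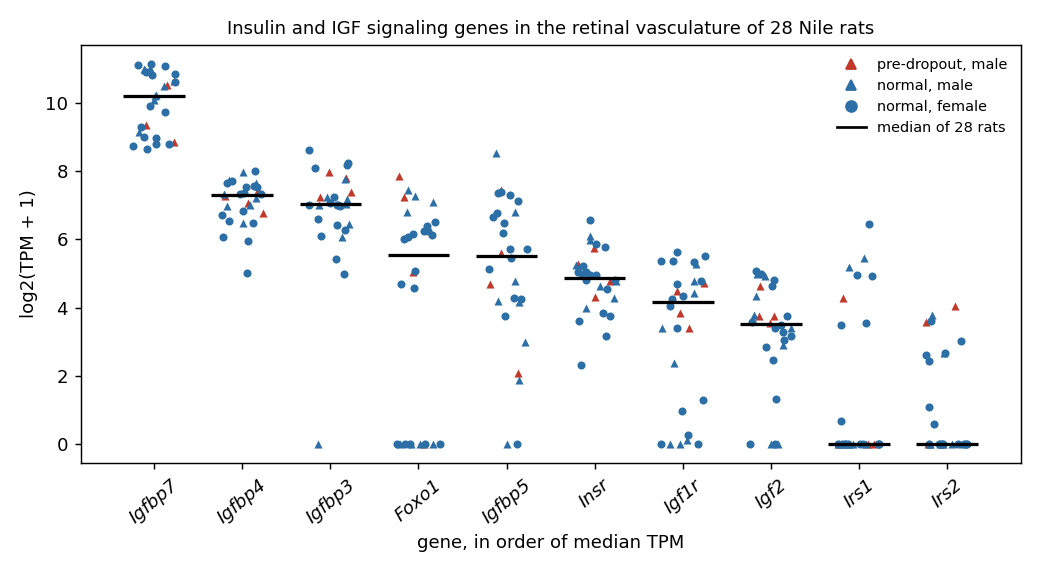
Level of each gene as log2(TPM + 1) in each of the 28 rats (points), with the genes on the x axis in order of median TPM and the median marked by a bar. Igfbp7 stood above the other genes with a median of 1178 TPM, and Irs1 and Irs2 had a median of 0.

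Among the binding proteins, Igfbp7 had a median of 1178 TPM (lowest 397.4, highest 2261), and Igfbp4, which holds IGFs in an inactive complex until it is cleaved, had a median of 156 TPM (31.5 to 253). Igfbp3, the main carrier of IGFs in blood, followed at a median of 129 TPM (0 to 392.7). Igfbp4 was above Igfbp3 in 15 of 28 rats and their interquartile ranges overlapped, so these neighbours did not differ beyond their spread in TPM. In CPM, which are not divided by transcript length, their medians were 253 and 67.9. Igfbp5, which binds matrix and IGFs, had a median of 45.1 TPM and the widest range of the binding proteins relative to its level, from 0 in 2 rats to 366 TPM in T348M.

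The receptors were lower. Insr, the insulin receptor, was detected in all 28 rats with a median of 28.4 TPM (4.03 to 93.2), and Igf1r, the IGF-1 receptor, in 24 rats with a median of 16.8 TPM (0 to 48.2). Insr was above Igf1r in 19 of 28 rats. Igf2, the ligand, had a median of 10.5 TPM (0 to 32.7) and was detected in 24 rats.

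Foxo1 took the fourth place with a median of 48.0 TPM (0 to 231), but it was detected in 18 of 28 rats and its median was 5.72 CPM. TPM divides counts by transcript length, and the ratio of counts to TPM gave Foxo1 a length of 0.0697 relative to the median of 2704 genes counted in every library. Of 17172 genes compared, 5.49% were shorter, so the TPM of Foxo1 rested on few counts over a short sequence. The same ratio gave Irs1 0.161, Igfbp5 0.253, Igfbp7 0.271, Igfbp3 0.293 and Irs2 0.312. It gave Igf1r 0.669, Igf2 0.748, Insr 0.844 and Igfbp4 0.898, so the order by TPM depends on these lengths. These are the lengths that entered the TPM, and whether they cover each whole transcript was not tested. The interquartile ranges overlapped at each step from Foxo1 to Irs2. Irs1 was detected in 9 rats, up to 85.5 TPM in T445F, and Irs2 in 11, up to 15.7 TPM in T353M. At these counts the 2 adaptors were not detected in most libraries.

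The spread between rats differed among the genes. Igfbp4 was the steadiest, with a coefficient of variation of CPM of 0.405, and 6.28% of the 13800 genes had a lower one. Igfbp7 had 0.574, Insr 0.623 and Igfbp3 0.623, against a median of 0.886 over all genes, and Irs1 had 2.29. Igf1r varied in an uneven way. It was at 53.1 CPM in T393F, 47.1 in T425M and 43.4 in T414F, yet it was at 0 in T348M, T410F, T420F and T448M, at 0.11 CPM in T424M and at 0.22 in T430F. T424M, T430F and T420F were not shallow, with 10029207, 8043818 and 6552944 counts, so a count of 0 in T420F allowed at most 0.448 CPM of Igf1r.

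Blood glucose was the first label to be compared, with the slope per 100 mg/dL over all 28 rats and sex as a covariate. None of the 10 genes changed with glucose by this test. Igfbp3 had the smallest p, with a slope of 0.30 (log2 CPM per 100 mg/dL), and Igfbp5 had the largest slope below 0 among them, at -0.41. Over all genes, the quasi-likelihood test of edgeR, with adjustment after Benjamini and Hochberg and called at 0.05, held 0 of 13800 genes (0%), DESeq2 called 22, limma-voom with sample weights 0 and limma on log2(TPM + 1) 0. At an unadjusted p under 0.05 edgeR held 525 genes (3.8%; 2.27% higher and 1.54% lower), and 0 of the 10 were among them. The p-values test each slope against the variation between these rats. Slopes were above 0 for 6 of the 10 genes and for 52.4% of all genes, and the median slope was 0.05 for the 10 genes and 0.01 for all.

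**Figure D2:**
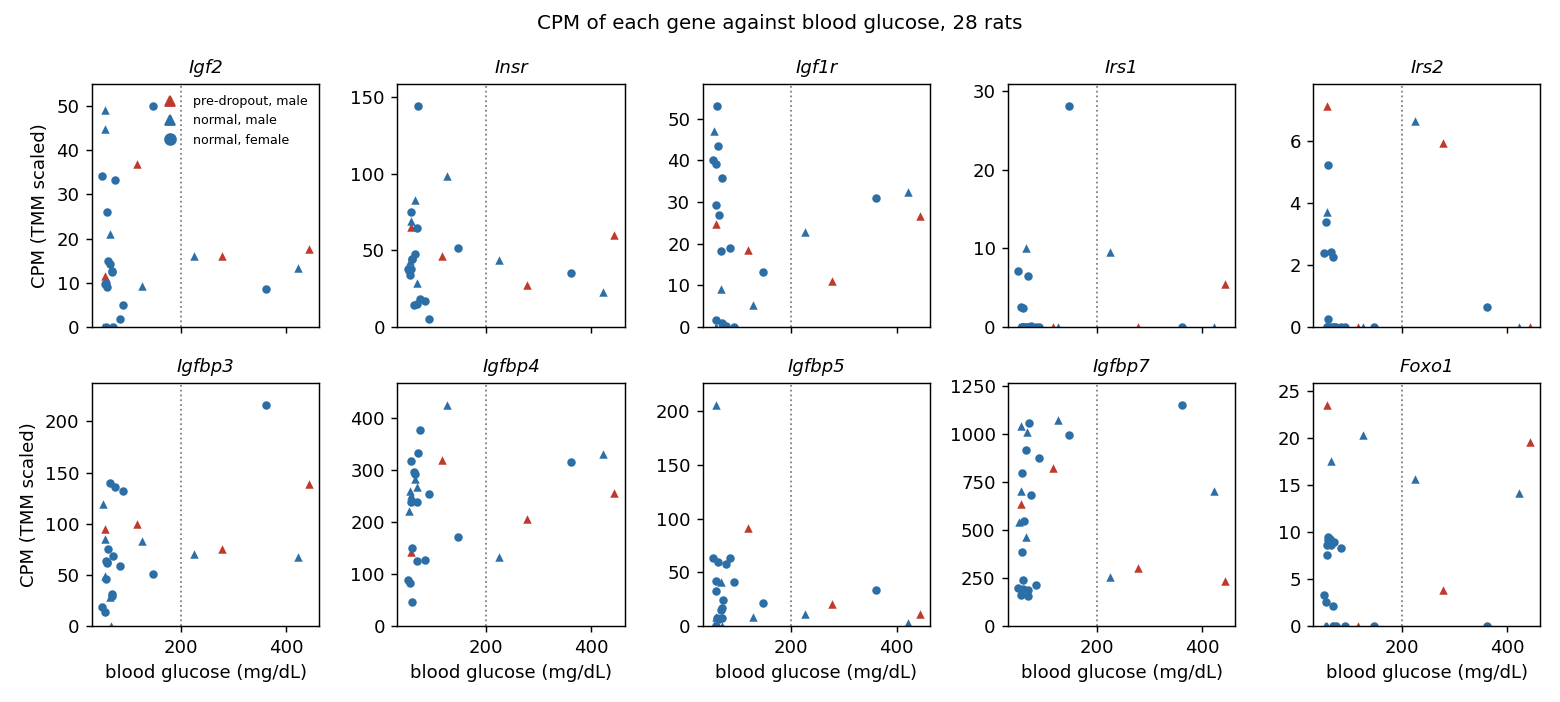
CPM of each gene (y axis, scaled per library by TMM) against blood glucose in mg/dL (x axis) in 28 rats, with triangles for males, circles for females and red for pre-dropout rats; the dotted line marks 200 mg/dL. All 5 rats above 200 mg/dL had Igfbp3 above the median of the other 23, a placing whose share over all genes was not computed. The highest Igfbp3 was 216 CPM in T392F, but no slope passed the adjusted test.

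For the ligand, Igf2 in the 5 rats above 200 mg/dL was at 8.59 CPM in T392F, 13.3 in T446M, 16 in T370M, 16.1 in T391M and 17.5 in T389M. The other 23 rats had a lowest value of 0, a median of 12.4 and a highest value of 50.0. The 5 rats lay inside the range of the others and close together. The slope was -0.10 (SE 0.39, edgeR adjusted p = 1).

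Igf1r was detected in all 5 rats above 200 mg/dL, at 11 CPM in T391M, 22.9 in T370M, 26.5 in T389M, 31.1 in T392F and 32.4 in T446M. The other 23 had a lowest value of 0, a median of 18.3 and a highest value of 53.1 CPM. The groups overlapped, and 4 of the 5 rats were above that median. The slope was 0.20 (SE 0.34, edgeR adjusted p = 1), with a 95% interval from -0.50 to 0.89.

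Insr was at 23.1 CPM in T446M, 27.7 in T391M, 35 in T392F, 43.4 in T370M and 60.0 in T389M. In the other rats its lowest value was 5.09, the median 44.2 and the highest 144 CPM, in T420F. Of the 5 rats, 1 was above that median, and the ranges overlapped. The slope was -0.14 (SE 0.18, edgeR adjusted p = 1), with an interval from -0.51 to 0.23, so a loss of more than 0.51 on the log2 scale per 100 mg/dL lay outside the interval.

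The adaptors gave too few counts for a firm value. Irs1 was detected in 2 of the 5 rats above 200 mg/dL, at 9.59 CPM in T370M and 5.54 in T389M, and in 7 of the other 23. Irs2 was detected in 3 of the 5, at 6.66 CPM in T370M, 5.95 in T391M and 0.661 in T392F, and in 8 of the other 23. Their slopes were 0.54 (SE 0.78) for Irs1 and -0.24 (SE 0.74) for Irs2, both with an edgeR adjusted p of 1. The value of Irs2 turned to 0.86 when rats above 200 mg/dL were compared with the rest as 2 groups.

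Igfbp3 showed the clearest placing of the 5 rats. It was at 67.4 CPM in T446M, 70.1 in T370M, 75.9 in T391M, 139 in T389M and 216 in T392F, against a lowest value of 0, a median of 62.8 and a highest value of 140 in the other 23. All 5 were above that median and 1, T392F, was above all the others. How many of all genes had all 5 rats above that median was not computed. The slope of 0.30 had an SE of 0.17 and an interval from -0.05 to 0.65 (edgeR p = 0.0872, adjusted p = 1). Without T392F it was 0.16 (SE 0.21).

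Igfbp7 separated the rats above 200 mg/dL among themselves. T392F, the female, had 1149 CPM, the highest of all 28 rats, and T446M had 702, whereas T389M had 235, T370M 254 and T391M 305. The other 23 rats had a lowest value of 159, a median of 635 and a highest value of 1069 CPM. The slope over all rats was 0.02 (SE 0.15, edgeR adjusted p = 1). Without T392F it was -0.19, and among the 12 males alone -0.26 (edgeR p = 0.0472, adjusted p = 1), whereas the test of whether the slope differed between the sexes gave a difference of -0.81 (male minus female, edgeR p = 0.0119, adjusted p = 0.303). Only 1 female was above 200 mg/dL, so the female slope rested on that rat.

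Igfbp5 was at 3.26 CPM in T446M, 11.2 in T370M, 11.8 in T389M, 20.8 in T391M and 33.7 in T392F. The other 23 had a lowest value of 0, a median of 21.9 and a highest value of 206 CPM, in T348M. The means were 16.2 and 35.5 CPM, but the ranges overlapped and the slope had an interval from -1.11 to 0.29 (edgeR p = 0.245, adjusted p = 1). Igfbp4 was between 133 CPM in T370M and 331 in T446M in the 5 rats and between 46.6 and 424.8 in the others. Its slope of 0.07 was the best bounded of the 10 genes, with an interval from -0.16 to 0.31.

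Foxo1 was detected in 4 of the 5 rats above 200 mg/dL, at 3.87 CPM in T391M, 14.2 in T446M, 15.7 in T370M and 19.6 in T389M, and was at 0 in T392F. It was detected in 14 of the other 23, with a median of 3.36 and a highest value of 23.5 CPM in T353M. The values overlapped, and the slope was 0.09 (SE 0.53, edgeR adjusted p = 1).

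**Figure D3:**
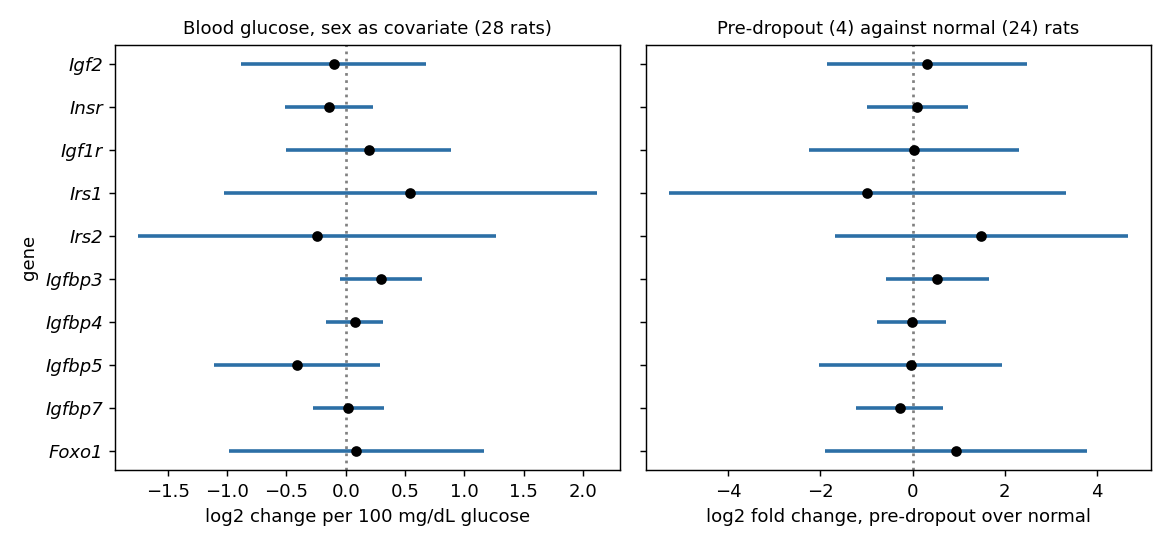
Estimate (point) and 95% interval (line) of each gene from edgeR, as log2 change per 100 mg/dL of glucose with sex as a covariate on the left and as log2 fold change of 4 pre-dropout over 24 normal rats on the right; the scales of the x axes differ. All 20 intervals contained 0, and the narrowest in both panels was that of Igfbp4.

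Igfbp7 differed between the 2 sets of libraries. It was at 159 to 305 CPM (median 208) in the 10 libraries with 12403 or more genes detected and at 387 to 1149 CPM (median 809) in the other 18, so the sets did not overlap, and the mean was 3.71-fold higher in the latter. In TPM the ranges were 397.4 to 650 and 856 to 2261. Of the 10 genes only Igfbp7 separated the sets in this way. The cut between the sets was chosen after the data were seen, so the separation is a description and not a test. Of all 13800 genes 0.283% did so in either direction, and Igfbp7 was 1 of 5 (0.0362%) that lay lower in the 10 libraries, against 0.246% higher. The other 4, named after their values were seen, were Chp1, Nras, Rgs5 and Tsc22d1, of which Rgs5 is a pericyte marker, 2.60-fold higher in the 18 libraries. The mean log2 CPM of the pericyte markers was 7.01 ± 0.41 (SD, n = 10 libraries) and 8.27 ± 0.48 (SD, n = 18), that of the endothelial markers 7.95 ± 0.49 and 8.60 ± 0.25, and that of the rod markers 5.69 ± 1.26 and 3.21 ± 1.51. In bulk RNA, fewer cells of a type and less RNA per cell cannot be told apart, and the part of any of these cell types in the Igfbp7 values was not tested.

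The 3 rats above 200 mg/dL with low Igfbp7, T370M, T389M and T391M, all belonged to the 10 libraries with many genes. Within those 10, Igfbp7 was at 235 to 305 CPM in these 3 rats and at 159 to 242 in the other 7, and within the 18 it was at 702 and 1149 in T446M and T392F and at 387 to 1069 in the other 16. Their Igfbp7 was thus low against all rats but not against the rest of their library set. With the library set as a covariate the glucose slope of Igfbp7 was 0.12 (SE 0.08, edgeR adjusted p = 0.999). Igfbp3 was at 70.1, 75.9 and 139 CPM in the 3 rats and at 13.6 to 62.8 in the other 7 of that set, without overlap. It was the only one of the 10 to do so, and 6.19% of the 13800 genes did, 1.93% higher and 4.25% lower. The 3 rats were all male and the 7 all female, so glucose and sex cannot be told apart within this set. Of the 3, T389M and T391M were pre-dropout rats, and the 7 were all of normal density, so density was not separated either. In the other set Igfbp3 was at 67.4 and 216 CPM in T446M and T392F and at 0 to 140 in the other 16. With the set as a covariate the slope of Igfbp3 was 0.40 (SE 0.17, interval 0.05 to 0.75, edgeR p = 0.0246, adjusted p = 0.532), which did not pass the test.

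Pre-dropout rats were then compared with normal rats, the contrast of the study, which asks what differs in vessels just below the density at which dropout is called. None of the 10 genes changed by the test. Igfbp3 was above the normal median in 4 of 4 pre-dropout rats, and how many of all genes were so was not computed. The highest Irs2 and Foxo1 of all 28 rats were in T353M, a pre-dropout rat with a glucose of 57.4 mg/dL. With the calls limited to changes over 2-fold at an adjusted p below 0.05, edgeR called 0 of 13800 genes (0%), DESeq2 5, limma-voom with sample weights 4 and limma on log2(TPM + 1) 0. At an unadjusted p under 0.05 edgeR held 394 genes (2.86%; 0.196% higher and 2.66% lower), and 0 of the 10 were among them. Of the 10 genes, 6 lay above 0, against 41.1% of all genes. The median log2 fold change was -0.13 over all genes and 0.07 over the 10, and on log2(TPM + 1) the median over all genes was 0.08, so a value is best read against that of all genes on the same scale. The 4 pre-dropout rats were all male, and 2 of them were above 200 mg/dL. The paper tested the same groups with its own tool, EBSeq, on reads mapped to the species' own genome. It reported differing genes, all of them higher in pre-dropout rats. The counts and the tests used here differ from those of the paper, so the calls cannot be set against each other.

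Igfbp3 was at 75.9 CPM in T391M, 95.1 in T353M, 99.9 in T407M and 139 in T389M. In the 24 normal rats it had a lowest value of 0, a median of 63.4 and a highest value of 216 CPM, so the pre-dropout rats stood in the upper part of the normal range. The log2 fold change was 0.53 (SE 0.55, edgeR adjusted p = 1), and 0.70 (SE 0.64) with sex as a covariate. It was 0.35 without T389M and 1.12 with limma-voom (unadjusted p = 0.0126), which did not pass the adjusted test either. Igfbp4 was at 143 CPM in T353M, 205 in T391M, 256 in T389M and 320 in T407M, inside the normal range of 46.6 to 424.8. Its log2 fold change of -0.02 had an interval from -0.77 to 0.73.

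Igfbp7 was at 235 CPM in T389M, 305 in T391M, 635 in T353M and 821 in T407M, with T389M and T391M in the library set with many genes and T353M and T407M in the other. The 8 normal rats of the first set lay at 159 to 254 CPM and the 16 of the second at 387 to 1149, so T391M was the highest of its set and the other 3 lay inside the ranges of theirs. The log2 fold change was -0.28 (SE 0.46, edgeR adjusted p = 1) and turned to 0.14 with the library set as a covariate. Igfbp5 was spread from 1.19 CPM in T353M over 11.8 in T389M and 20.8 in T391M to 91.3 in T407M, inside the normal range of 0 to 206.

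Insr was at 27.7 CPM in T391M, 46.3 in T407M, 60.0 in T389M and 65.4 in T353M, and Igf1r at 11 in T391M, 18.6 in T407M, 24.7 in T353M and 26.5 in T389M. Both receptors lay inside the normal ranges of 5.09 to 144 and 0 to 53.1 CPM. The log2 fold change of Insr was 0.10 (SE 0.54), and that of Igf1r was 0.04 (SE 1.13) with TMM and -0.04 with the size factors of DESeq2, so Igf1r had no direction. Igf2 was at 11.7 CPM in T353M, 16.1 in T391M, 17.5 in T389M and 36.8 in T407M, with a log2 fold change of 0.31 (SE 1.07).

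The adaptors and Foxo1 were detected in some of the pre-dropout rats only. Irs2 was at 7.14 CPM in T353M and 5.95 in T391M, and at 0 in T389M and T407M. Irs1 was at 5.54 CPM in T389M and at 0 in the other 3. Foxo1 was at 23.5 CPM in T353M, 19.6 in T389M and 3.87 in T391M, and at 0 in T407M. Their log2 fold changes of 1.49 (SE 1.57), -0.98 (SE 2.13) and 0.94 (SE 1.41) had edgeR adjusted p-values of 1, and the intervals spanned more than 5 log2 units each. Single rats moved these values by over 1.5 times. Without T353M, Irs2 had 0.83 and Foxo1 0.45, and without T389M Irs1 was at 0 in all remaining pre-dropout rats. With the library quality covariates Irs2 had 2.64 (SE 1.12, interval 0.38 to 4.90, edgeR p = 0.0235, adjusted p = 0.714), with the rod markers as a covariate 3.60 (unadjusted p = 0.00556 by edgeR) and with limma-voom 0.09, and none of these passed the adjusted test.

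The levels of the 10 genes were also set against the mean log2 CPM of markers of 5 cell types, to describe with which cell type's transcripts each gene varied. Over all 28 rats, 7 of 50 relations passed Benjamini-Hochberg adjustment by both Pearson's r and Spearman's rho, and they belonged to Igfbp7 (positive with pericyte and endothelial, negative with rod markers), to Igfbp4 (the same 3 lists and signs) and to Irs2 (positive with rod markers). Within the 10 libraries with many genes, and within the other 18, 0 of the 50 passed. For Igfbp7 the pooled r over 28 rats was 0.84 with pericyte markers (rho 0.78, permutation p = 1e-05 and 2e-05, adjusted 0.0005 and 0.001). It was 0.69 with endothelial markers (rho 0.61) and -0.60 with rod markers (rho -0.55). Since Igfbp7 itself fell into separate ranges in the 2 sets, its r is also given within each set. With the pericyte markers it was 0.07 (rho 0.08, permutation p = 0.848 and 0.836, adjusted 0.967 and 0.983, n = 10) and 0.51 (rho 0.39, permutation p = 0.0306 and 0.108, adjusted 0.731 and 0.712, n = 18). With the endothelial markers r was 0.39 and 0.20, and with the rod markers -0.05 and -0.02. The sets hold few rats and were cut on the number of genes detected, with which Igfbp7 itself varied. Whether the relations of Igfbp7 hold within the sets cannot be decided from these values.

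For Igfbp4 the pooled r over 28 rats was 0.62 with pericyte markers (rho 0.62, permutation p = 0.00034 and 0.00053, adjusted 0.00567 and 0.0125) and 0.61 without the 2 rats farthest from the median marker level, yet within the sets it was 0.23 and 0.02. With endothelial markers r was 0.58 (rho 0.55, permutation p = 0.00132 and 0.00309, adjusted 0.0113 and 0.0204), 0.49 without the 2 farthest rats, and 0.27 and 0.07 within the sets. With rod markers r was -0.53 (rho -0.60, permutation p = 0.00344 and 0.001, adjusted 0.0246 and 0.0125), -0.51 without the 2 farthest rats, and -0.10 and -0.18 within the sets. Within the sets each r of Igfbp4 kept its pooled sign but was smaller in size. The sets hold few rats and were cut on the number of genes detected, with which Igfbp4 itself varied. Whether the relations of Igfbp4 hold within the sets therefore cannot be decided from these values. Irs2, at 0 in 17 rats, had r = 0.58 with rod markers (rho 0.57, permutation p = 0.00136 and 0.00195, adjusted 0.0113 and 0.0195), 0.49 without the 2 farthest rats, and 0.68 and 0.29 within the sets (permutation p = 0.0314 and 0.243, adjusted 0.488 and 0.856).

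Igfbp3 kept a positive r with the endothelial markers in both sets, 0.71 (rho 0.56, permutation p = 0.0219 and 0.095, n = 10) and 0.48 (rho 0.25, permutation p = 0.049 and 0.308, n = 18), but neither passed the adjustment (0.488 and 0.907 in the first set, 0.731 and 0.712 in the second). Over all 28 rats Igfbp3 had r = 0.42 and rho = 0.55 with them (permutation p = 0.0214 and 0.00268, adjusted 0.124 and 0.0204).

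**Figure D4:**
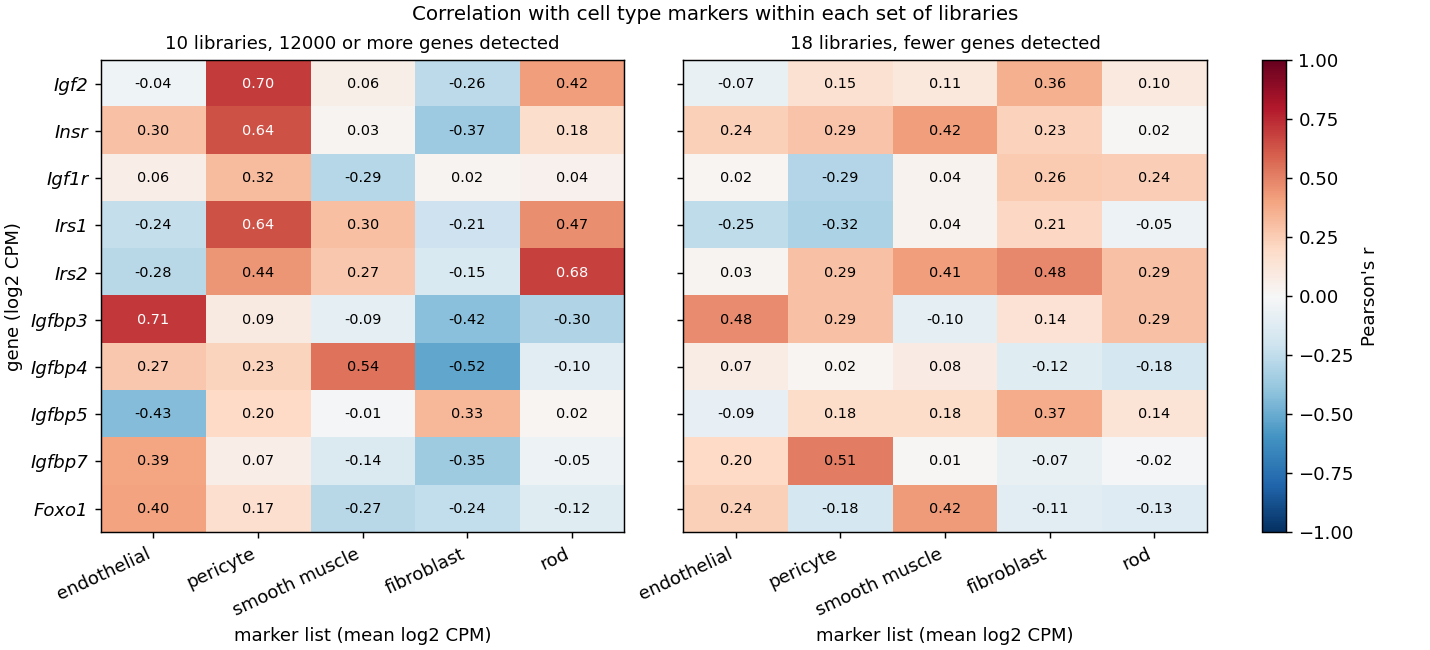
Pearson's r between the log2 CPM of each gene (rows) and the mean log2 CPM of each marker list (columns), within the 10 libraries with 12000 or more genes detected (left) and the other 18 (right), with red for positive and blue for negative values. None of the relations passed the adjustment; the highest r was 0.71, of Igfbp3 with endothelial markers in the left panel.

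The number of genes detected was set against the 10 genes after the data were seen, in 20 relations with that number and with log2 of the total count. Over all 28 rats Igfbp7 had r = -0.80 with the number of genes (rho -0.70, permutation p = 1e-05 and 6e-05, adjusted 0.0002 and 0.0012). Igfbp4 had -0.70 (rho -0.58, permutation p = 4e-05 and 0.00184, adjusted 0.0004 and 0.0092). Irs2 had 0.58 (rho 0.57, permutation p = 0.001 and 0.0017, adjusted 0.0055 and 0.0092). Within the sets Igfbp7 had r = -0.31 (n = 10) and 0.04 (n = 18), Igfbp4 -0.60 and 0.12, and Irs2 0.49 and 0.43. Igf1r, the IGF-1 receptor, had a pooled r of 0.59 (rho 0.58, permutation p = 0.0011 and 0.00154, adjusted 0.0055 and 0.0092). Without the 2 farthest rats its r was 0.55 (adjusted permutation p = 0.024 for r and 0.054 for rho), and only Igfbp7 still passed by both measures. Without the 2 libraries under 1000000 counts Igf1r had r = 0.48 (rho 0.49, adjusted permutation p = 0.058 and 0.057), whereas Igfbp7, Igfbp4 and Irs2 passed. Within the sets Igf1r had 0.63 and 0.50 (permutation p = 0.029 and 0.0333), though neither passed the adjustment (0.447 and 0.222). Its level was 1.08 to 53.1 CPM in the 10 libraries with many genes and 0 to 47.1 in the others, of which 4 were at 0. Irs2 was detected in 7 of the 10 libraries and in 4 of the 18, and Irs1 in 6 of the 10 and 3 of the 18.

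**Figure D5:**
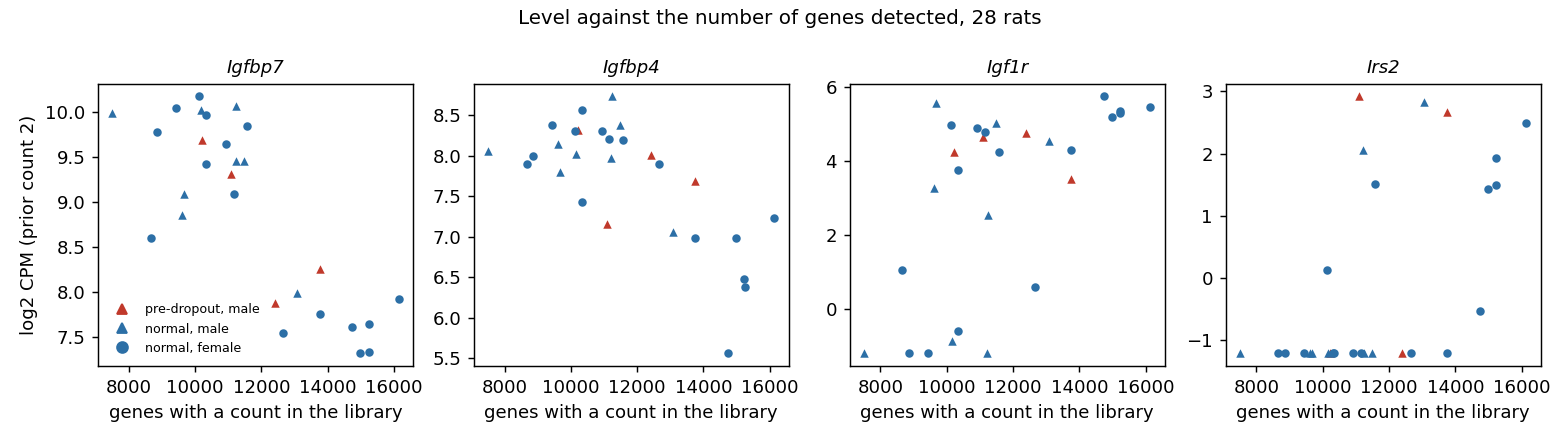
Log2 CPM (prior count 2) of Igfbp7, Igfbp4, Igf1r and Irs2 (y axes) against the number of genes with a count in the library (x axis) in 28 rats, with triangles for males, circles for females and red for pre-dropout rats. Igfbp7 did not overlap between the 10 libraries with 12000 or more genes detected (159 to 305 CPM) and the other 18 (387 to 1149).

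Among the 45 pairs of the 10 genes, 1 passed the adjustment by both measures. It was Igfbp4 with Igfbp7, and it did not pass within either set of libraries, where r was 0.43 (rho 0.50, permutation p = 0.212 and 0.145, adjusted 0.649 and 0.724, n = 10) and 0.24 (rho 0.34, permutation p = 0.332 and 0.162, adjusted 0.922 and 0.903, n = 18). Igf2 and Igfbp5 had r = 0.59 and rho = 0.43 over 28 rats (permutation p = 0.00125 and 0.0221, adjusted 0.0281 and 0.145), and r was 0.41 without the 2 rats farthest from the median of Igf2. Within the sets it was -0.05 and 0.65 (permutation p = 0.909 and 0.00349, adjusted 0.97 and 0.157). For Insr the largest r with any of the other 9 was 0.37, with Foxo1 (rho 0.39).

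The genes whose log2 CPM ranked most like each of the 10 over the 28 rats were searched among about 7547 well counted genes. The highest rho of so many can be large by chance, and no chance level or p-value is given here. Each rho was pooled over both sets of libraries, and no value within either set is given. The lists are therefore a description and not a test. For Igfbp7 they included Eef1a1 and Wdr38, at Spearman's rho of 0.91 and 0.89. For Igfbp4 they were Kctd10, Mgp and B3galt4 (0.81, 0.80 and 0.79), and for Igfbp3 Tanc1, Chmp1b and Adam10 (0.80, 0.79 and 0.78). Igfbp5 was most like Mug1, Tpbg and Ednrb, with a highest rho of 0.71. Insr was most like St3gal1, Nek9 and N4bp1 (0.73, 0.71 and 0.71), Igf1r like Gnao1, Lrrn3 and Snapc3 (0.78, 0.76 and 0.76), and Igf2 like Cacfd1, Atp2b4 and Fasn (0.73, 0.63 and 0.63). The lists of Irs1 (Tmtc2, Abca8a and Mmp15), Irs2 (Optn, Ahcyl1 and Srsf4) and Foxo1 (Topbp1 and Tbrg1 among them) rested on many values of 0, with rho between 0.61 and 0.77.

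Of 54 other genes of the pathway, 53 were in the tables and 47 passed the filter. Among the highest by median TPM were Slc2a1, the glucose transporter of the blood-retina barrier, at 342 TPM (166 to 637), Htra1, a secreted protease that cleaves binding proteins, at 148 and Rheb, the activator of mTOR, at 128. With glucose, 0 of the 47 passed the adjusted test, 22 slopes were above 0 and 25 below, and the median was -0.01. The glucose slope of Slc2a1 was 0.09 (SE 0.10). Pappa, a protease that cleaves Igfbp4, had an unadjusted p under 0.05, with a slope of -1.48 (SE 0.70, edgeR adjusted p = 1), and T425M alone held 49.6% of its summed CPM. Igf1, the other IGF, was at 0 to 22.9 CPM with a median of 11.6 in the 5 rats above 200 mg/dL and 0.712 in the others, and its slope of 1.15 had an SE of 0.76.

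Between pre-dropout and normal rats 0 of the 47 passed, 22 were above 0 and 25 below, with a median of -0.06. Pappa2, another protease of the binding proteins, and Stc1, an inhibitor of both proteases, had unadjusted p-values of 0.0281 and 0.0297 (edgeR adjusted p = 1 for both). Each was at 0 in all 4 pre-dropout rats and was detected in 8 of 24 normal rats, up to 16.03 and 40.7 CPM, so the fits rested on few libraries. A count of 0 in the pre-dropout libraries allowed up to 0.693 to 1.30 CPM.

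Of 22 target genes of FOXO factors, 20 passed the filter. With glucose 0 passed the adjusted test and the median slope was 0.03. G6pc, a gene of glucose release in liver, had an unadjusted p of 0.0169, but it was at 0 in 19 of 28 rats and, among the rats above 200 mg/dL, detected only in T389M at 5.31 CPM. Sod2, a mitochondrial antioxidant gene, was at 103 to 169 CPM in the 5 rats above 200 mg/dL and at 59.3 to 676 in the others, with a slope of -0.27 (SE 0.14, edgeR p = 0.0507, adjusted p = 1). In the density comparison 0 of the 20 passed, and the smallest p was that of Cat, which encodes catalase, with a log2 fold change of 0.44 (SE 0.39, edgeR p = 0.264, adjusted p = 1).

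With glucose the slopes of 8 of 8 pericyte and 7 of 7 fibroblast markers tested lay below 0 (medians -0.17 and -0.29), against 47.6% of all genes. Those of 12 of 12 rod markers (median 0.25) and 9 of 12 endothelial markers lay above 0, against 52.4% of all genes. Of the smooth muscle markers 4 of 6 lay below 0. None passed the adjusted test. Markers of 1 cell type can move together in bulk RNA, so their signs are not independent counts. In the density comparison 7 of 8 pericyte and 11 of 12 rod markers lay below 0 (medians -0.42 and -0.82), against 58.9% of all genes. So did 6 of 7 fibroblast and 5 of 6 smooth muscle markers. Above 0 lay 11 of 12 endothelial markers (median 0.22), against 41.1% of all genes. Their part in the values of the 10 genes was not tested beyond the fits with the rod markers or the library set as covariates.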

How the data were processed

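Libraries were made, 1 per rat for 28 rats, from 100 ng of DNase-treated RNA of retinal vessels per the study's methods. The authors deposited expected counts (estimated, with fractions, not scaled between libraries) and TPM of 18970 genes under mouse symbols, taken here as the output of their comparative pipeline. The aligner's version is not given in the sources used here, and a mapping to the species' own genome was not used here. The paper reported a moderate correlation between the values of its comparative pipeline and those from the genome. It judged the values from the genome more reliable and used them for its markers. Age and diet of single rats were not in the labels used. Expected counts were rounded, filtered by filterByExpr (minimum count 10), scaled by TMM and tested by edgeR 4.0.16 with Benjamini-Hochberg adjustment in R 4.3.3. Glucose was fitted per 100 mg/dL with sex as a covariate, and pre-dropout rats were compared with normal rats without covariates, called at an adjusted p under 0.05 and, for density, a change over 2-fold. The study's own tool, EBSeq, was not run. DESeq2 1.42.0 and limma 3.58.1 (voom on counts, and log2(TPM + 1)) served as alternatives. CPM use the TMM-scaled totals, and log2 CPM a prior count of 2. Correlations used 100000 permutations (NumPy 2.4.6, SciPy 1.17.1, two-sided). Scripts were tested on simulated data. Floors of 3 counts cover counting error only.

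The 10 genes, the other lists and the alternatives were chosen with earlier results of these data known. Named genes were all 10 members, the 5 other pathway genes highest by median TPM, and other pathway genes past an unadjusted p of 0.05. Igf1 and the genes named among the FOXO targets were chosen after their values were seen. The 3 genes most like each member were ranked by Spearman's rho. Some genes that these rules name are not reported here. The 2 sets of libraries (12000 or more genes detected, and fewer), the interactions and the pairs were chosen after seeing the data. No other column of per-sample values was left out, and no 2 libraries were duplicates (largest r between libraries 0.954).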

Additional observations from a re-analysis of the deposited data

Results flagged for a closer look

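Of 20 groups of 4 or 5 rats tested (each of the 10 genes in the rats above 200 mg/dL and in the pre-dropout rats), 1 held a rat far from the others, and chance gives about 1 in 20. Irs1 was at 5.54 CPM in T389M and at 0 in the other 3 pre-dropout rats, so the gap is between 1 detected value and counts of 0.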

How the results depend on the processing

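No call was made for any of the 10 genes under any alternative run. The number of all genes called with glucose, 0, became 152 without the filter on low counts, 22 with DESeq2, 6 with library quality covariates, 2 in rats of normal density only and 25 with the library set as a covariate. The number called with density, 0, became 72 without the filter, 5 with DESeq2, 4 with limma-voom and 47 with library quality covariates. The 4 of limma-voom, a fit without sex, were Psmg2 and the Y-linked genes Ddx3y, Eif2s3y and Kdm5d, and no pre-dropout rat was female. The 7 marker relations became 4 on log2(TPM + 1), 4 without the 2 farthest rats, 0 in males, 4 in females, and 0 and 0 within the library sets. Leaving out each of the 5 rats above 200 mg/dL in turn (glucose), or each of the 4 pre-dropout rats (density), left 0 genes called. The other rats were not left out in turn. The causes were not tested.

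Some directions turned. With glucose, Irs2 had 0.028 without sex, 0.86 as 2 groups and 0.46 against rats below 100 mg/dL. On log2(TPM + 1) Igf2 had 0.13, Igfbp5 0.088 and Igfbp7 -0.065. Igfbp7 had -0.20 with limma-voom, -0.26 in males, -0.22 as 2 groups and -0.089 against rats below 100 mg/dL. Leaving out 1 rat above 200 mg/dL gave -0.19 (without T392F) to 0.12 for Igfbp7 and -0.083 to 0.27 for Foxo1.

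With density, Insr had -0.087 in males and -0.095 with sex as a covariate. Igf1r had -0.042 with DESeq2 size factors, -0.042 with DESeq2, -0.026 without libraries under 1000000 counts and -0.033 with glucose as a covariate. With library quality covariates Irs1 had 0.068, Igfbp4 0.18 and Igfbp5 0.082, and Irs2 moved to 2.64. Igfbp4 had 0.000644 without the filter, 0.47 with limma-voom, 0.052 on log2(TPM + 1), 0.046 with the rod covariate and 0.34 with the library set. Igfbp5 had 0.45 with glucose as a covariate, and Igfbp7 0.23 with limma-voom and 0.14 with the library set. Leaving out 1 pre-dropout rat gave -0.017 to 0.34 for Insr, -0.10 to 0.29 for Igf1r, -0.10 to 0.51 for Igf2, -0.17 to 0.18 for Igfbp4, -1.45 to 0.39 for Igfbp5 (lowest without T407M) and -0.61 to -0.051 for Igfbp7.

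With a minimum of 1 CPM in 14 libraries Irs1 and Irs2 could not be tested, nor Irs1 for density in males alone. No paired analysis was possible because the rats share no replicate numbers in the labels. Irs1, Irs2 and Foxo1 were at 0 in 19, 17 and 10 rats, deep libraries such as T424M (10029207 counts) among them, and were the least well measured. What set these zeros was not tested.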

Other observations

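The glucose slope of Foxo1 differed between the sexes by 4.83 (male minus female, log2 per 100 mg/dL, SE 2.49, edgeR p = 0.0589, adjusted p = 0.432). T392F was the only female above 200 mg/dL, and Foxo1 was at 0 in it.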
